A study of Mus musculus with 6 samples.

Results

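The genes described here are Bhlhe40, Bhlhe41, Per1, Per2, Cry1, Cry2, Nr1d1, Nr1d2, Dbp and Clock, the circadian clock genes of mouse around the transcriptional repressor Bhlhe41. A gene was read at a probe set annotated to that gene alone, and 9 of the 10 genes had such a probe set, 1 each, out of 22180 genes and 41345 probe sets on the array. The only probe set annotated to Per2 was shared with 9830107B12Rik, so Per2 has no value of its own. The set was put together with earlier results of the same arrays in view, among them the lower value of Bhlhe41 after targeting of Mist. Differences of these genes between the groups are therefore given as a description, with no p value.

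The cells were RAW 264.7, an established mouse macrophage-like line. Cells of both groups received a GapmeR at 50 nM by transfection and were harvested after 48 h. A GapmeR is a short antisense DNA flanked by locked nucleic acids, and RNase H cleaves the RNA it pairs with. In the Control group (3 arrays) the GapmeR was non-targeting, and in the Mist-targeted group (3 arrays) it was directed against Mist, a long noncoding RNA of macrophages. Only 1 GapmeR against Mist is named, no group without transfection is among these arrays, no probe set is annotated as Mist, so its own level was not analysed here, and the labels give no clock time or synchronisation of the cultures. Setting the groups side by side shows how clock transcripts differ once Mist is targeted.

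The circadian clock is a loop of transcription and repression that runs in most cells, macrophages included. CLOCK and its partner BMAL1 (gene Arntl) bind E-box sequences and activate the period genes, the cryptochrome genes, Nr1d1, Nr1d2, Dbp and the Bhlhe40 and Bhlhe41 genes. PER and CRY proteins then repress CLOCK and BMAL1, the nuclear receptors REV-ERB alpha and beta (Nr1d1 and Nr1d2) repress Arntl, and BHLHE40 and BHLHE41 (also called DEC1 and DEC2) compete for E-boxes as repressors. Bhlhe40 and Bhlhe41 are also induced by low oxygen and by inflammatory signals, and both act in immune cells, where they shape cytokine production and the self-renewal of tissue macrophages.

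The promoter sequences of 4 of these genes are shown because they hold, or lack, the E-box letters CACGTG in the window searched. Their genes also differed in the size of the change after Mist targeting, and a link between letters and change was not tested. Each sequence is the 250 bases before a RefSeq start (build GRCm38.p6), written 5' to 3' on the strand of the gene. Capitals mark each match of ACGTG on either strand, and where 2 such matches overlap they spell the E-box CACGTG.
Bhlhe41 (chr6:145865421-145865670, minus strand): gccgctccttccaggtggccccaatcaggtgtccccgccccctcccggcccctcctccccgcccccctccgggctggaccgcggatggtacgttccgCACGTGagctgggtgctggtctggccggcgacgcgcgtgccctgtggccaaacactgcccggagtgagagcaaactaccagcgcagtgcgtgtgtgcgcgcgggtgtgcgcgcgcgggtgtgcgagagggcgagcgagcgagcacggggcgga
Per1 (chr11:69098699-69098948, plus strand): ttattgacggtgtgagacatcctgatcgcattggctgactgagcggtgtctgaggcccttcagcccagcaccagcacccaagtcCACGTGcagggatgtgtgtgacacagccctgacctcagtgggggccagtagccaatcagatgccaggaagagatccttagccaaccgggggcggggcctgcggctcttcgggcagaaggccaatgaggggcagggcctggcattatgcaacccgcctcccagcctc
Cry1 (chr10:85185055-85185304, minus strand): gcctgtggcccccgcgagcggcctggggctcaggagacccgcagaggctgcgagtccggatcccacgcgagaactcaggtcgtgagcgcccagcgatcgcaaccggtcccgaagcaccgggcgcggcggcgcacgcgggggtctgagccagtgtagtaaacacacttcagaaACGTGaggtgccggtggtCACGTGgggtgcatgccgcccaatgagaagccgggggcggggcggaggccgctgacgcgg
Cry2 (chr2:92434070-92434319, minus strand): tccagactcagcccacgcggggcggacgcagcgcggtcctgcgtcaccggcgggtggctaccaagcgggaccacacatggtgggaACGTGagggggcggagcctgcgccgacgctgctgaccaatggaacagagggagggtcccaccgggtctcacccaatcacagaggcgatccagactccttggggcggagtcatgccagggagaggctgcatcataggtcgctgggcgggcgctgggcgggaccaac

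RefSeq windows were found for 8 of the 10 genes, 11 windows in all, and Bhlhe40 and Per2 had none in the table used. CACGTG was found upstream of Bhlhe41, Per1 and Cry1, that is in 3 of the 11 windows, against 6.02% of all 32851 windows. It began 153 bases before the start of Bhlhe41, 166 before that of Per1 and 60 before that of Cry1. Per1 has a second RefSeq start, whose window held neither CACGTG nor ACGTG. The shorter ACGTG, which lies within the E-box and is also a core of hypoxia response elements, was found upstream of 6 of the 8 genes (6 of 11 windows), against 16.6% of all windows. In Cry2 the match stands alone, 165 bases before the start, and in Cry1 a further match lies 78 bases before the start. GCGTG, another hypoxia response element core, was in 9 of the 11 windows and 28.2% of all, and the nuclear receptor half-site AGGTCA in 3 of 11 (Per1, Nr1d2 and Clock) and 14.0% of all. The D-box TTANGTAA, at which DBP binds, and the cyclic AMP response element TGACGTCA were in 0 of the 11 windows, and in 2.06% and 1.55% of all. The base composition of the windows was not taken into account, and Clock and Per1 were counted with several windows. These matches describe letters in a window and show no binding.

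The deposited values are log2 expression, and the medians of the 6 arrays lay between 4.47 and 4.50. Of 10 macrophage markers 9 had a mean above 6.19, the upper quartile of all probe sets, and the exception was Mertk. Of 19 measured markers of T cells, B cells, fibroblasts, epithelium and endothelium 0 had a mean above that quartile. Limma (adjusted p under 0.05 over all 41345 probe sets) called 105 probe sets (0.254%), 52 lower and 53 higher, and 92 of the 22180 genes (0.415%). The number of arrays limits the precision, and an SE of 0.11 (log2) was the median over all probe sets.

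With the Mist-targeted GapmeR, Bhlhe41 and its paralogue Bhlhe40, the cryptochrome gene Cry2 and the REV-ERB beta gene Nr1d2 were lower by between 1.49-fold and 2.34-fold. Clock and Per1 were lower by smaller amounts. Cry1, Nr1d1 and Dbp had groups that overlapped. In such bulk RNA, fewer cells with a transcript and less of it per cell cannot be told apart. In 6 of the 9 measured genes every Mist-targeted array lay below every Control array, and in 0 every one lay above. Over all 22180 genes the Mist-targeted arrays were all below Control in 9.97% and all above in 9.99%, and nothing is read from the count of 6, since the genes were chosen with these values known. Differences were negative in 8 of the 9 genes with a median of -0.37, where all genes had a median of 0.0069 and 47.8% had a negative difference. At the threshold of the fit over all probe sets 1 of the 9, Bhlhe41, was called, against a background of 0.415% of genes. That count was 0 without Control replicate 1, 2 or 3 and without Mist-targeted replicate 1 or 3, and it was 1 without Mist-targeted replicate 2. Nothing is read from the signs, the median or the calls of these genes either, for the same reason of choice.

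**Figure D1:**
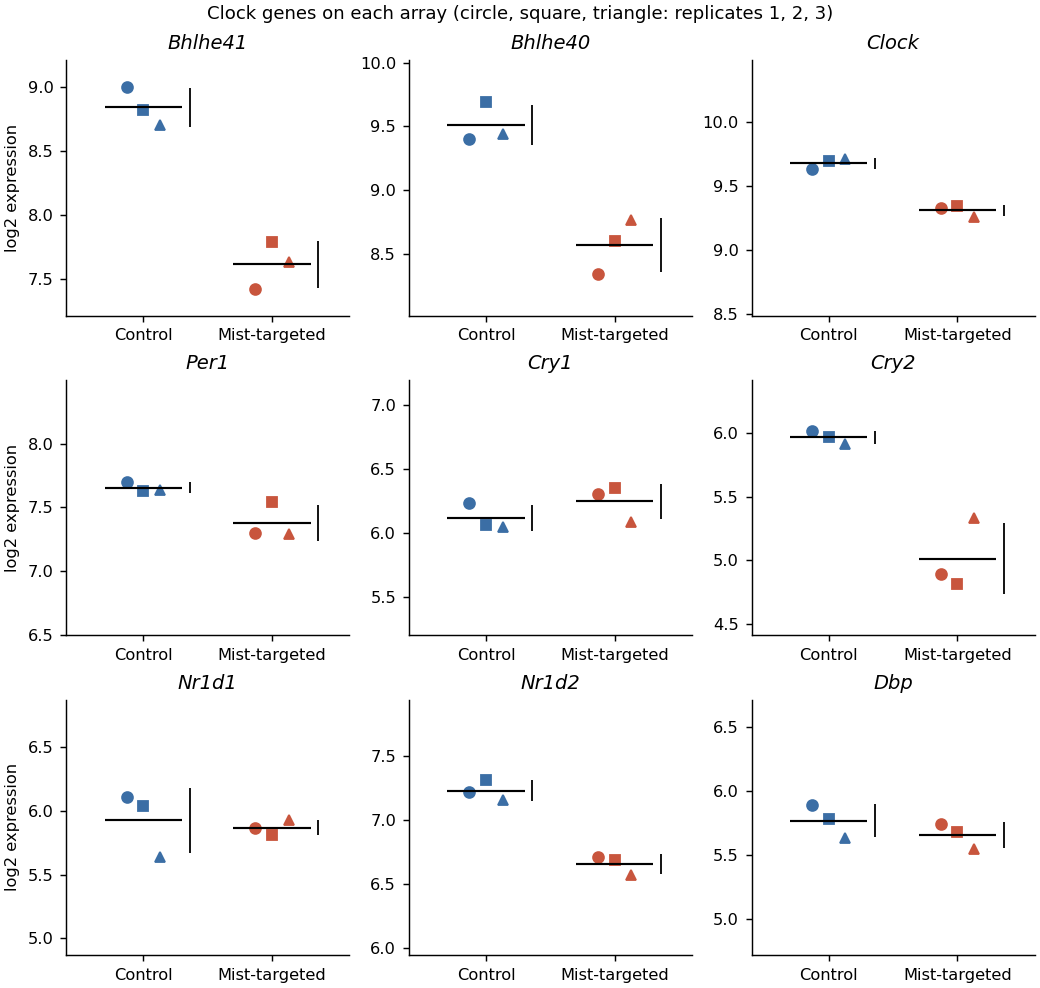
Log2 expression (vertical axes, each spanning 2 log2 units) of the 9 measured clock genes on the 3 Control and 3 Mist-targeted arrays; horizontal lines are group means, vertical lines the SD, and symbols the replicate number. The groups are apart for Bhlhe41, Bhlhe40, Clock, Per1, Cry2 and Nr1d2 and overlap for Cry1, Nr1d1 and Dbp.

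Bhlhe41, which encodes the E-box repressor DEC2, had log2 values of 9.01, 8.82 and 8.70 on the Control arrays and of 7.42, 7.79 and 7.63 on the Mist-targeted arrays (probe set 17472760). The lowest Control array thus lay 0.91 above the highest Mist-targeted array, the widest gap among the 9 genes. The means were 8.84 ± 0.15 and 7.61 ± 0.18 (SD, n = 3 each), a log2 difference of -1.23 ± 0.13 (SE), or 2.34-fold lower. It was the 13th lowest difference of the 22180 genes.

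Bhlhe40, which encodes the paralogue DEC1 and is the better known of the pair in T cells and macrophages, read 9.41, 9.69 and 9.44 in Control and 8.35, 8.60 and 8.77 after targeting. No array of either group reached the range of the other, and the gap between them was 0.64. The log2 difference was -0.94 ± 0.13 (SE, n = 3 each), or 1.92-fold lower. Both repressor genes were thus lower on all 3 Mist-targeted arrays, and both had their lowest value on Mist-targeted replicate 1.

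The activator gene Clock gave the tightest replicates of the set. Its values were 9.63, 9.69 and 9.71 in Control and 9.33, 9.34 and 9.26 after targeting, with SDs of 0.042 and 0.043. A difference of -0.37 ± 0.079 (SE, n = 3 each), 1.29-fold lower, therefore left a gap of 0.29 between the groups although it was small.

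Per1, the period gene that responds most directly to cyclic AMP and glucocorticoid signals, had values of 7.70, 7.63 and 7.63 in Control and 7.30, 7.54 and 7.30 after targeting. Mist-targeted replicate 2 came within 0.081 of the lowest Control array, so the groups were only just apart. The log2 difference was -0.27 ± 0.098 (SE, n = 3 each). For Per2, the shared probe set read 4.42, 4.60 and 4.73 in Control and 4.35, 4.20 and 4.39 after targeting, near the median of the arrays, and which of its 2 annotated genes it measures was not tested.

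The cryptochrome genes, whose products repress CLOCK and BMAL1 directly, had differences of unequal size. Cry2 read 6.01, 5.97 and 5.91 in Control and 4.89, 4.82 and 5.33 after targeting. Control arrays were close to one another, while Mist-targeted replicate 3 lay above the other 2 of its group, whose SD of 0.28 was the highest of the 9 genes. The log2 difference was -0.95 ± 0.14 (SE, n = 3 each), 1.93-fold lower. A second probe set, annotated to both Cry2 and D930015M05Rik, differed by -0.17 ± 0.10 with overlapping groups, at values between 4.23 and 4.60 that are near the median of the arrays.

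Cry1 read 6.23, 6.06 and 6.05 in Control and 6.30, 6.35 and 6.09 after targeting. It was the 1 gene of the set with a positive difference, 0.13 ± 0.10 (SE, n = 3 each), and its groups overlapped. Without Mist-targeted replicate 2 the difference was 0.080, and without Mist-targeted replicate 3 it was 0.21.

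The REV-ERB genes, which encode haem-binding nuclear receptors that repress Arntl and, in macrophages, inflammatory genes, likewise differed in the size of the change. Nr1d2 had values of 7.22, 7.32 and 7.16 in Control and of 6.72, 6.69 and 6.57 after targeting. The arrays of each group were within 0.16 of one another and the groups were 0.44 apart. The log2 difference was -0.57 ± 0.088 (SE, n = 3 each), 1.49-fold lower. Nr1d1 read 6.11, 6.04 and 5.64 in Control and 5.87, 5.81 and 5.93 after targeting. Control replicate 3 lay below all Mist-targeted arrays and the other 2 Control arrays above them, and the difference was -0.059 ± 0.13 (SE). Without Control replicate 3 it was -0.21, and without Control replicate 1 it was 0.031, so that its sign rests on single arrays.

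Dbp, a D-box activator of the PAR bZIP family and one of the genes with the widest daily swing in most tissues, had values of 5.89, 5.78 and 5.63 in Control and of 5.74, 5.68 and 5.54 after targeting. The groups overlapped and the difference was -0.11 ± 0.10 (SE, n = 3 each). It was -0.050 without Control replicate 1, -0.055 without Mist-targeted replicate 3 and -0.18 without Control replicate 3.

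Other genes of the clock were read from 4 lists chosen by membership of the pathway, though with earlier results of these data known. Of 58 listed genes 51 were measured, and limma called 0 of them over all probe sets (0.415% of all genes were called). At an unadjusted p under 0.05 there were 10 (6 lower, 4 higher). The share of all genes at that unadjusted threshold is not given, so nothing is read from such counts here or in later paragraphs. An ordinary linear model had 15 at an unadjusted p under 0.05. It called 0 of all 41345 probe sets, so its lack of calls here says nothing about these genes. When only probe sets annotated to 1 gene were tested, limma called far more, 713 of 23521 probe sets. In that fit 5 of the 51 were called: Nfil3, Ciart, Btrc and Klf9, which were lower, and Klf10, which was higher.

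**Figure D2:**
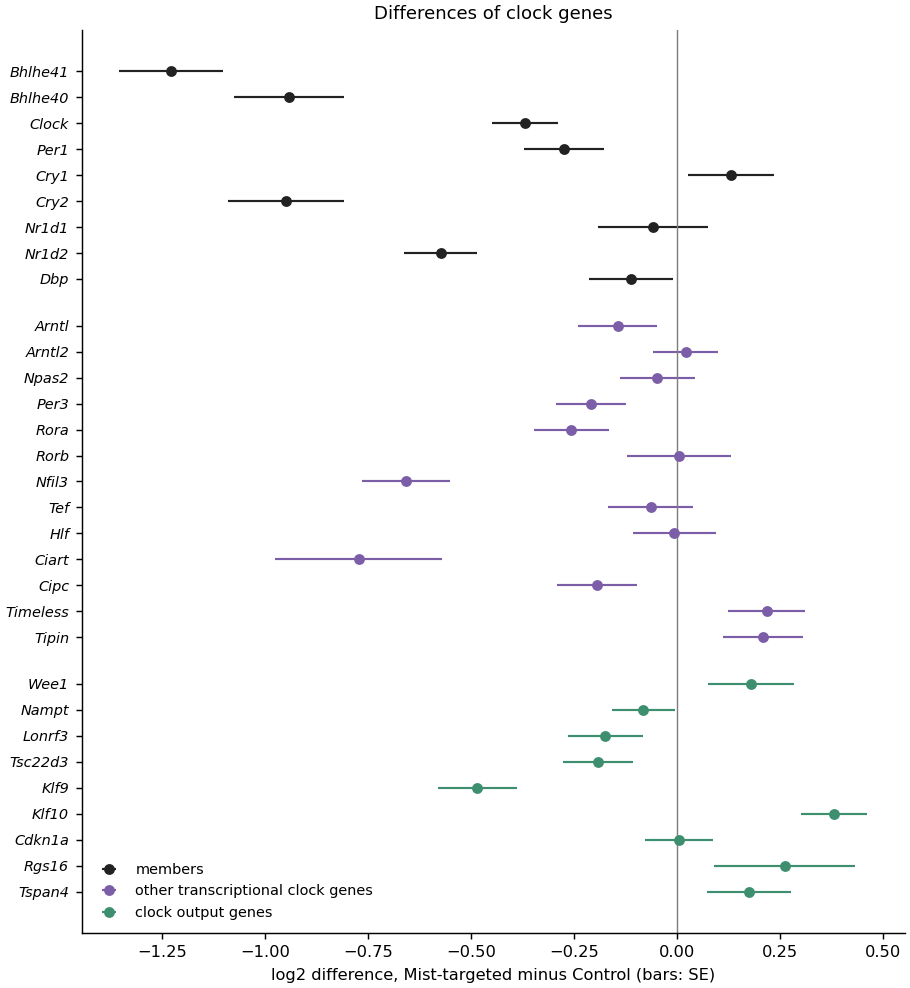
Log2 differences, Mist-targeted minus Control, with SE as bars (n = 3 each), for the 9 measured clock genes, 13 other transcriptional clock genes and 9 clock output genes. Bhlhe41 has the lowest value at -1.23, Cry2 and Bhlhe40 follow at -0.95 and -0.94, Ciart and Nfil3 have the lowest values outside the 9, at -0.77 and -0.66, and Klf10 the highest at 0.38.

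Among 13 other transcriptional clock genes 0 were called by limma, with 4 (all lower) at an unadjusted p under 0.05 and 5 by the ordinary model, and the median difference was -0.064. That median moved by over 1.5 times, between -0.14 (without Control replicate 3) and -0.020 (without Control replicate 2), with further values of -0.027, -0.11 and -0.12 without Mist-targeted replicates 2, 1 and 3, and of -0.10 without the dimmest 40% of probe sets. Nfil3, the D-box repressor that opposes DBP, read 6.35, 6.33 and 6.42 in Control and 5.51, 5.84 and 5.78 after targeting. The groups did not overlap, and the difference was -0.66 ± 0.11 (SE, n = 3 each; limma, adjusted p = 0.076). Ciart, which encodes the CLOCK and BMAL1 repressor CHRONO, read 6.18, 5.99 and 6.08 against 4.81, 5.51 and 5.61. Mist-targeted replicate 1 lay well below the other 2 arrays of its group, and the difference was -0.77 ± 0.20 (limma, adjusted p = 0.22), or -0.52 without that array.

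Arntl, the partner of Clock, had a difference of -0.14 ± 0.096 (limma, adjusted p = 0.71). Its Control arrays ran from 8.02 to 8.26 and its Mist-targeted arrays from 7.95 to 8.09, so the groups overlapped, unlike those of Clock. The other PAR bZIP genes Tef and Hlf differed by -0.064 ± 0.10 and -0.0064 ± 0.10, Per3 by -0.21 ± 0.085, and the Arntl activator Rora by -0.26 ± 0.091. None of these 4 passed (limma, adjusted p between 0.40 and 0.99), and all of them read close to the median of the arrays.

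Of 17 kinases, phosphatases and ubiquitin ligases that set the stability of clock proteins, 0 were called by limma, with 4 (1 of them lower) at an unadjusted p under 0.05 and 5 by the ordinary model. Btrc, which encodes the ubiquitin ligase subunit beta-TrCP that marks PER proteins for degradation, read 7.96, 7.94 and 7.91 in Control and 7.33, 7.52 and 7.40 after targeting. The groups were well apart, with a difference of -0.52 ± 0.086 (SE, n = 3 each; limma, adjusted p = 0.078, and 0.038 with a trended, robust variance). Skp1, a shared subunit of these ligases, differed by 0.23 ± 0.083 (limma, adjusted p = 0.40), and by 0.059 when its probe sets were averaged. The median of the list was 0.0039, and it lay between -0.016 (without Control replicate 3) and 0.066 (without Mist-targeted replicate 2) with 1 array left out.

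Of 12 coregulators, among them the acetyltransferase genes Crebbp and Ep300 and the corepressor gene Hdac3, limma called 0, with 0 at an unadjusted p under 0.05 and 1 by the ordinary model. Ep300 differed by 0.17 ± 0.076 and the methyltransferase gene Kmt2a by -0.16 ± 0.093 (limma, adjusted p = 0.55 and 0.67). Of 9 clock output genes limma called 0, with 2 at an unadjusted p under 0.05 and 4 by the ordinary model. The 2 were Klf9, a zinc finger factor gene also induced by glucocorticoids, at -0.49 ± 0.096 (limma, adjusted p = 0.12), and Klf10, a TGF beta inducible factor gene, at 0.38 ± 0.080 (limma, adjusted p = 0.14). Their groups did not overlap. Nampt, the NAD salvage enzyme gene that the clock drives in liver, differed by -0.082 ± 0.077, and the mitotic kinase gene Wee1 by 0.18 ± 0.10.

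The closest protein family of DEC1 and DEC2 are the other basic helix-loop-helix repressors with an Orange domain. Limma called 0 of the 10 HES, HEY and HELT genes, with 0 at an unadjusted p under 0.05 by limma and 0 by the ordinary model, and only Hes6, Hes7 and Heyl had a mean above the median of all probe sets. Their differences ran from -0.17 (Hey2) to 0.24 (Hes5), and both ends rest on single arrays. Hey2 stood at -0.29 without Control replicate 2 and at -0.089 without Control replicate 3. Hes5 stood at 0.41 without Mist-targeted replicate 2, 0.13 without Control replicate 3 and 0.084 without Mist-targeted replicate 3, and at 0.14 when its probe sets were averaged. Among the 4 Id genes, inhibitors that pair with helix-loop-helix factors and keep them from DNA, limma called 0, with 2 at an unadjusted p under 0.05 and 1 by the ordinary model. Id2 differed by -0.43 ± 0.11 (limma, adjusted p = 0.22) with groups that did not overlap, and Id3 by 0.24 ± 0.10 (limma, adjusted p = 0.51). Il10 and Maf, reported as repressed by Bhlhe40 or Bhlhe41 in immune cells, read between 3.93 and 4.18 on all arrays, below the array medians. They differed by -0.092 ± 0.081 and 0.050 ± 0.089 (limma, adjusted p = 0.80 and 0.93).

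Since Bhlhe40 and Bhlhe41 are hypoxia inducible, 19 measured hypoxia targets were set beside them; that these genes are lower on the Mist-targeted arrays was known when the list was made. Limma called 3, all of them lower (Ddit4, Ero1a and Hilpda; 0.203% of all genes were called lower), and 16 of the 19 had Mist-targeted arrays all below Control, where all genes gave 9.97%. With 1 array left out, Ero1a (adjusted p between 0.063 and 0.17) and Hilpda (between 0.062 and 0.20) were no longer called in any of the 6 fits, and Ddit4 (between 0.027 and 0.090) was called only without Mist-targeted replicate 1 or 2. Against the Control mean, the list had medians of -1.24, -0.67 and -0.70 on Mist-targeted replicates 1, 2 and 3. Bhlhe41 stood at -1.42, -1.05 and -1.21 on the same arrays and Bhlhe40 at -1.17, -0.91 and -0.75, so that replicate 1 was the lowest in all 3 series. Cry2 stood at -1.07, -1.15 and -0.63 and Nr1d2 at -0.52, -0.54 and -0.66, with their lowest values on replicates 2 and 3. A lowest replicate 1 was not particular to hypoxia targets and these repressor genes. Outside the list, Nfil3 stood at -0.86, -0.53 and -0.59 and Btrc at -0.60, -0.41 and -0.53 on the same arrays. The part of the hypoxia targets in the differences of the clock genes was not tested.

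**Figure D3:**
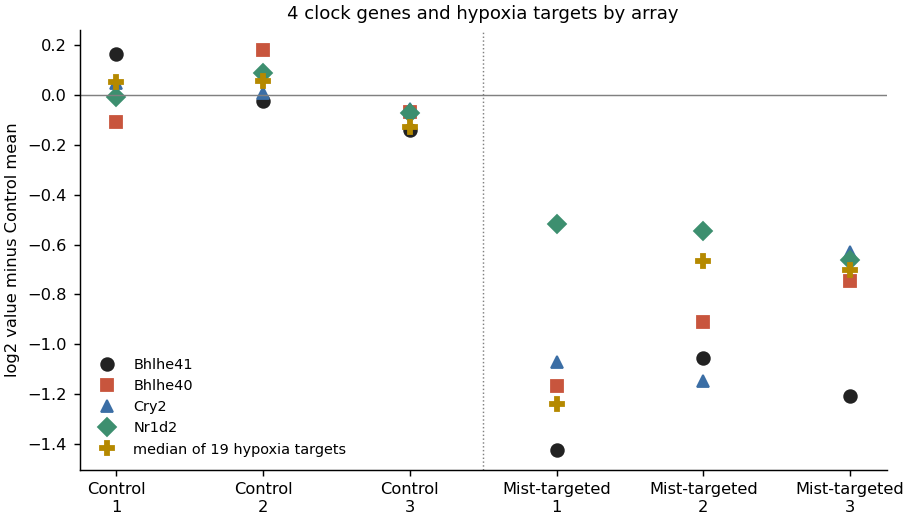
Log2 value minus the Control mean (vertical axis) of Bhlhe41, Bhlhe40, Cry2 and Nr1d2, and the median of 19 hypoxia targets, on each of the 6 arrays (horizontal axis). On Mist-targeted replicate 1 Bhlhe41, Bhlhe40 and the hypoxia targets are at their lowest, at -1.42, -1.17 and -1.24, while Nr1d2 is lowest on replicate 3 at -0.66.

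The genes most like Bhlhe41 were found by the root mean square distance over the 6 arrays, after each gene's Control mean was subtracted, among 19384 other genes. The nearest were Hpse (0.093), the heparanase gene; Plk2 (0.10), a polo-like kinase gene; Cth (0.11), the cystathionine gamma-lyase gene; Ero1a (0.11), an oxidoreductase gene of the endoplasmic reticulum; and Selenbp1 (0.11), a selenium-binding protein gene. Their differences lay between -1.18 and -1.08. By the same distance Bhlhe40 came 26th (0.26), Cry2 38th (0.29) and Nr1d2 173rd (0.49). Since the Control mean was subtracted, the distance depends mostly on the size of the difference. Counted from the lowest difference of all genes, the same 3 were 35th, 34th and 176th, so this order adds little to the differences. Clock was 509th (0.63) and Per1 852nd (0.68), and Dbp, Nr1d1 and Cry1 came 3584th or later.

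On the chromosome, the 3 nearest protein-coding genes with a probe set on each side of Bhlhe41 were Casc1, Etfrf1 and Rassf8 and Sspn, Itpr2 and Ints13. Limma called 0 of these 6, with 1 at an unadjusted p under 0.05 by limma and 1 by the ordinary model. Itpr2, an inositol trisphosphate receptor gene, had the only groups that did not overlap and differed by -0.21 ± 0.087 (limma, adjusted p = 0.49). Rassf8 differed by -0.25 ± 0.12 (limma, adjusted p = 0.58) and Sspn, the gene next to Bhlhe41 on the other side, by -0.12 ± 0.097 (limma, adjusted p = 0.78). Values of this size are small beside the -1.23 of Bhlhe41.

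Over 15 alternatives the difference of Bhlhe41 lay between -1.31 and -1.13, that of Bhlhe40 between -1.04 and -0.83, that of Cry2 between -1.11 and -0.85 and that of Nr1d2 between -0.61 and -0.53. Clock lay between -0.39 and -0.34 and Per1 between -0.36 and -0.23. Several of these alternatives change only the variance or the probe sets tested, which left these differences as they were. The 3 genes with overlapping groups moved by over 1.5 times from their reported differences with 1 array left out. Cry1 lay between 0.080 and 0.21, Dbp between -0.18 and -0.050 and Nr1d1 between -0.21 and 0.031. Nr1d1 was the only one of the 9 whose sign changed.

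**Figure D4:**
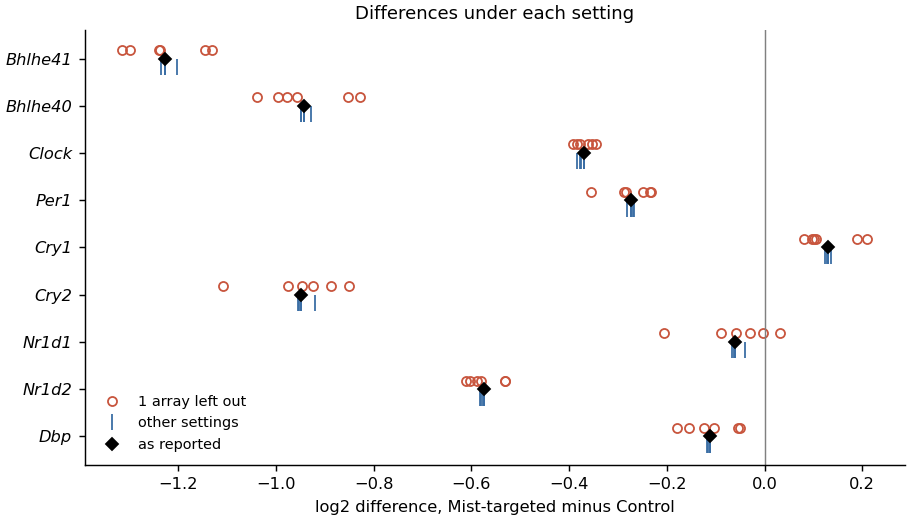
Log2 differences (horizontal axis) of the 9 clock genes as reported (diamonds), with 1 array left out (open circles) and under the other settings (bars). For Bhlhe41 all values lie between -1.31 and -1.13, and only those of Nr1d1 lie on both sides of 0.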

How the data were processed

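RNA of 3 Control and 3 Mist-targeted samples was measured on 6 arrays. Per the labels, RNA was column-purified with DNase digestion and biotin-labelled by an Affymetrix protocol. The deposited values are log2 expression per probe set, 2.50 to 14.1, used as deposited; the submitters' processing notes name RMA and Partek, with no version or setting. RMA's quantile step would reduce a shift common to most transcripts.

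Of 41345 probe sets, 23521 were annotated to 1 gene symbol, 1814 to several and 16010 were not listed. A gene was read at its single-gene probe set with the highest mean over all arrays. The probe sets of all 9 measured members matched RefSeq (GRCm38.p6) by gene ID.

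Differences are Mist-targeted minus Control from a two-sided moderated fit with group as its single term (lmFit and eBayes of limma 3.58.1, R 4.3.3; SE from the moderated variance), adjusted by Benjamini and Hochberg over all 41345 probe sets, with a call at an adjusted p under 0.05. The fit was tested on simulated data. With 3 arrays a group, the smallest p of an exact permutation test is 0.1. The labels do not say whether replicates came from separate cultures; p values then reflect only the spread of these samples, which may be technical. Arrays correlated at 0.988 to 0.991 in a group and at 0.986 to 0.989 across groups.

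The members and all lists were chosen with earlier results of these data known. Named are all members and, per list, the genes past the threshold or, where none passed, the 2 with the smallest p; genes whose role is described are given as values. Also named are the 5 genes most like Bhlhe41 (no Gm, Rik or LOC symbols) and the 3 nearest measured genes on each side of it. Alternatives tried were a trended and robust variance, no moderation, a block for the replicate number, quantile normalization, array weights, median centring, a filter that drops the dimmest 40% of probe sets, single-gene probe sets only, averaging all probe sets per gene, a minimum change of 1.5-fold, and leaving out each array in turn. Tables, motif searches on both strands and plots were made in Python 3.11.15 (pandas 2.3.3, matplotlib 3.10.9).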

Additional observations from a re-analysis of the deposited data

How the results depend on the processing

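Over the 15 alternatives that give a value, Bhlhe41 lay between -1.31 and -1.13. The median of the 8 other measured clock genes lay between -0.37 and -0.29. Both moved by less than the spread between replicates, but most of these alternatives could not have moved them further. Changes of the variance, the replicate block, the filter and the choice or averaging of probe sets left both values as they were. Leaving out 1 array moves a gene's group mean by less than its SD in that group. Array weights, quantile normalization and median centring gave Bhlhe41 -1.20, -1.23 and -1.23, but they too had little room to move it. Weighted means stay within the arrays of a group, and the array medians already lay between 4.47 and 4.50. The processing notes name RMA, which has a quantile step of its own. The number of calls moved far more. From 105 probe sets it went to 287 with a trended, robust variance, 713 among single-gene probe sets and 161 without the dimmest 40%, to 0 without moderation, and to between 2 and 40 with 1 array left out. Of the 9 clock genes, limma then called 5 with a trended, robust variance (287 of 41345 probe sets in all). It called the same 5 among single-gene probe sets (713 of 23521), namely Bhlhe40, Bhlhe41, Cry2, Nr1d2 and Clock. Without the dimmest 40% it called 4, all of these but Clock (161 of 24807). After quantile normalization it called 2, Bhlhe40 and Bhlhe41 (115 of 41345), and without moderation 0. Nothing is read from these counts, since the genes were chosen with these values known. Of the other clock genes limma called 1 with a trended, robust variance and 5 among single-gene probe sets, and 0 under the remaining alternatives. With 1 array left out the difference of Maf lay between -0.0023 and 0.082, and its sign turned only without Mist-targeted replicate 1; it was never called. Ddit4, Ero1a and Hilpda each lost their call under several alternatives. The causes of these shifts were not tested.

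With the replicate number as a block 0 probe sets and 0 clock genes were called. Deviations from the group mean correlated at 0.20, 0.096 and 0.033 between arrays of the same number. Between arrays of different number the correlations ran from -0.15 to 0.060. These values do not settle whether the numbers mark pairs, and the main fit did not take them as pairs. Background signal was not analysed here, so differences of genes near the array median may be understated.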
